A study of Mus musculus with 6 samples.

Results

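The Notch receptors and the proteins that carry, answer or restrain their signal were examined in LSK cells of mouse bone marrow. The set held 10 genes, chosen by name and found on 10 of the 22381 lines of the deposited table: the receptors Notch1, Notch2, Notch3 and Notch4, the nuclear partners Rbpj and Maml1, the target genes Hes1, Nrarp and Dtx1, and the inhibitor Numb. LSK cells lack mature lineage markers and carry Sca-1 and c-Kit on their surface, a fraction that holds blood stem cells and early multipotent progenitors. RNA came from C57BL/6 mice of 8 to 12 weeks, with 3 samples labelled Tgif1-/- and 3 labelled wild type (WT, Tgif1+/+). Tgif1 encodes a homeodomain repressor of TGF-beta and retinoic acid signalling. The labels name no Cre, no other allele and no treatment, and do not say whether each sample is a separate animal, so p-values may reflect technical spread alone. The table holds 1 value per group in FPKM, a read level scaled to transcript length and library size, so no spread between samples could be measured and the sequencing depth is unknown.

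Notch receptors are single-pass membrane proteins that bind ligands of the Delta and Jagged families on neighbouring cells. Ligand binding lets an ADAM protease and then gamma-secretase cut the receptor, and the released intracellular part joins Rbpj and a Mastermind protein on DNA to switch on genes such as Hes1, Nrarp and Dtx1. In blood formation the pathway is best known for directing multipotent progenitors to the T cell lineage, for marginal zone B cells through Notch2, and for the emergence of the first stem cells in the embryo.

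The labels were checked against the values. Tgif1 (ENSMUSG00000047407) stood at 88.6 FPKM in the samples labelled Tgif1-/- and at 71.5 FPKM in those labelled wild type, and its test failed, so the targeted gene does not separate the groups in the direction of the label and every direction given here is between groups as labelled. The LSK genes were present in both, with Kit, which encodes c-Kit, at 193 and 202 FPKM, Ly6a, which encodes Sca-1, at 120 and 88.9 FPKM and Cd34 at 314 and 316 FPKM (Tgif1-/- first, as in every pair that follows). Cd3e, a defining gene of T cells, was low at 0.134 and 0.250 FPKM, but it does not stand for its list. Of the 13 T and NK cell markers in the table, 6 reached 1 FPKM in either group. Among them were Cd4 at 3.21 and 2.58 FPKM, Thy1 at 8.18 and 8.78 FPKM and Lck at 22.7 and 27.7 FPKM. The authors' deposited table marks 10730 genes as tested, and of these 0.662% had a q at or under 0.05. Those higher in the samples labelled Tgif1-/- made up 0.289% of tested genes and those lower 0.373%.

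None of the 10 Notch genes was called different between the groups. By the status in the table, 5 members were tested with Cuffdiff, the tests of 3 failed (Notch1, Notch2 and Rbpj), and 2 had too few reads for a test (Notch3 and Dtx1). Of the 5 tested, 0 had a q at or under 0.05 and 0 had an unadjusted p below 0.05, against backgrounds of 0.662% and 5.41% of tested genes. The smallest unadjusted p among them in the authors' deposited table was 0.28, for Numb. The failed tests fell on the members with the highest levels, so the table offers no test where the receptors were most abundant. The median log2 ratio (Tgif1-/- over wild type) was -0.19 over the 5 tested members and -0.22 over all 10, beside -0.03 over all tested genes. In bulk RNA of this kind, fewer cells that express a gene and less RNA per cell cannot be told apart.

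**Figure D1:**
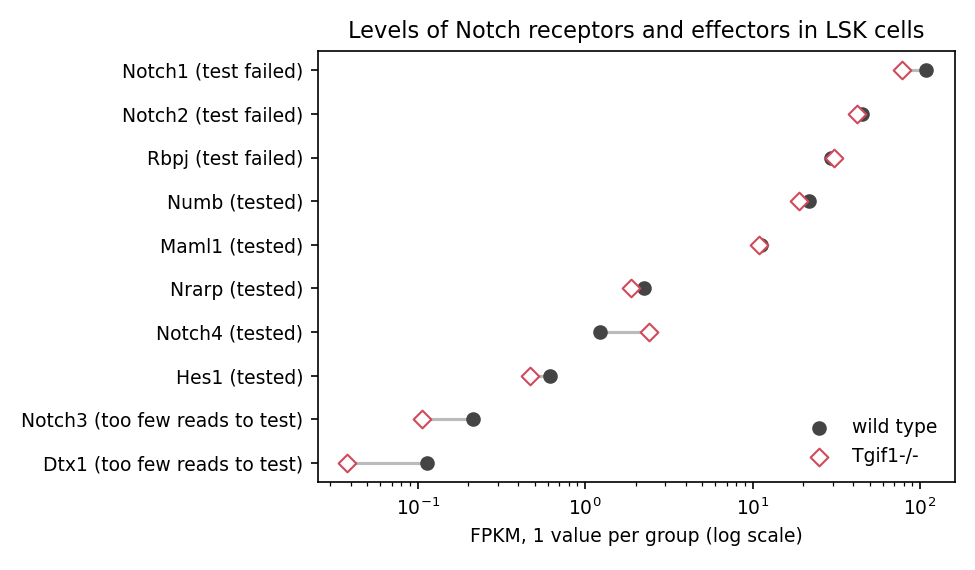
Level of each of the 10 Notch genes in FPKM on a log axis, with 1 value for the samples labelled wild type (filled circles) and 1 for the samples labelled Tgif1-/- (open diamonds), ordered by the wild-type level; the status of the test stands beside each name. The genes span from 0.114 FPKM (Dtx1) to 108 FPKM (Notch1) in the wild-type samples, and the 3 highest are those whose test failed.

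Among the receptors, LSK cells carried mostly Notch1 and Notch2 transcript. Notch1 (ENSMUSG00000026923, chromosome 2, positions 26313423 to 26372183 in the table, on a mouse build that no source used here names) is the receptor required for T cell commitment. It stood at 78.1 FPKM in the samples labelled Tgif1-/- and at 108 FPKM in those labelled wild type, a log2 ratio of -0.47, or 1.38-fold lower. It was the widest gap in FPKM of the 10 genes. No error or p goes with it, since its test failed.

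The size of the Notch1 difference was set beside that of other genes at like level as a description. Of 2333 genes whose mean level lay within 2-fold of that of Notch1, 0.514% had a log2 ratio as low or lower. The tests of 35.0% of those genes failed as well. The 1513 tested ones had a median implied standard error of 0.19 on the log2 scale. That error is the deposited log2 fold change divided by the deposited test statistic, so it belongs to the authors' model, with no spread between samples seen here. With an error of that size a 1.60-fold difference would have been needed for a q at or under 0.05, more than the 1.38-fold of Notch1.

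Notch1 lies next to a gene that was called. Egfl7 encodes a secreted EGF-like protein of endothelial and stem cells and hosts a microRNA. It is listed in an interval, shared with other genes, that starts 63.4 kb beyond the listed end of Notch1. It was named because it is the 1 called gene in the list of endothelial markers, and its position beside Notch1 was noticed after the values were seen. Egfl7 fell, at 88.3 FPKM in the samples labelled Tgif1-/- against 121 FPKM in those labelled wild type, a log2 ratio of -0.45 ± 0.07 (implied standard error). For it the authors' deposited table gave a q of 2.15e-08. The ratios of Egfl7 and Notch1 thus differed by less than 0.1 on the log2 scale. With its error raised to the median of genes at like level, the adjusted p of Egfl7 was 1.00 and the call was lost. Fam69b and Agpat2, listed in the same interval as Egfl7, were not called, the first at 30.8 and 35.9 FPKM, the second at 42.0 and 46.4 FPKM. Sec16a, on the other side of Notch1, stood at 43.5 and 45.7 FPKM. Among these 5 genes the log2 ratio was lowest at Notch1 and Egfl7. A further gene of the Egfl7 interval, RP23-125H15.6, had a higher value in the samples labelled Tgif1-/-, at 0.986 and 0.205 FPKM, and was not called. Reads of the genes that share this interval may mix.

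Notch2 (ENSMUSG00000027878, chromosome 3, positions 97817461 to 97954290), the receptor of marginal zone B cell fate, stood at 42.1 FPKM in the samples labelled Tgif1-/- and at 44.8 FPKM in the wild-type samples, a log2 ratio of -0.09 with no test. Ratios at least as far from 0 were found in 50.3% of 3900 genes at like level. Notch1 was therefore 1.85 times as abundant as Notch2 in the samples labelled Tgif1-/- and 2.42 times as abundant in the wild-type samples, a comparison that FPKM allows because it is scaled to length. The summed receptor level was 123 and 154 FPKM. Notch1 made up 63.6% and 70.1% of it and Notch2 34.3% and 29.0%. The order Notch1, Notch2, Notch4, Notch3 was the same in both groups.

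Notch4 (ENSMUSG00000015468, chromosome 17, positions 34701213 to 34725448), a receptor of vascular endothelium, was the only receptor with a test and the only one with a higher value in the samples labelled Tgif1-/-. It stood at 2.40 FPKM there and at 1.23 FPKM in the wild-type samples, a log2 ratio of 0.96, or 1.95-fold. The difference was not called. The implied standard error was 1.31, the 95% interval ran from -1.61 to 3.54, and p was 0.462 in the authors' deposited table. That interval leaves room for values from 3.04-fold lower to 11.6-fold higher. The error of Notch4 was larger than that of 98.9% of tested genes in its level bin (20 bins in all), whose median was 0.43. A 26.4-fold difference would have been needed for a call. With a pseudocount of 1 FPKM the log2 ratio was 0.61.

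Endothelial markers stood beside Notch4 as follows. Of the 13 in the list, 8 were tested, and 1, Egfl7, was called, lower in the samples labelled Tgif1-/-, against a background of 0.373%. Of the 8, 5 had a higher value in the samples labelled Tgif1-/-, and their median log2 ratio was 0.10, beside -0.03 over all tested genes. The 13 summed to 210 and 232 FPKM, and the 12 without Egfl7 summed to 122 and 111 FPKM, so the direction of the sum rests on that gene. Stab2, a scavenger receptor of sinusoidal endothelium chosen after its values were seen, stood at 0.446 and 0.0576 FPKM, in the same direction as Notch4. The authors' deposited table gave it a p of 0.0245 and a q of 0.651. Its implied standard error was 1.31, and a pseudocount of 1 FPKM moved its log2 ratio from 2.95 to 0.45. The 3 tested markers with a lower value in the samples labelled Tgif1-/- were Egfl7, Emcn at 20.7 and 22.0 FPKM and Tie1 at 5.23 and 6.49 FPKM. The defining gene Cdh5, VE-cadherin, stood near 0 at 0.0413 and 0.0980 FPKM, and none of the 13 was listed at 0. Pecam1, which LSK cells also carry, stood at 54.3 and 44.9 FPKM with a failed test. Levels within the list were uneven, with Kdr at 0.183 and 0.196 FPKM and Vwf at 16.5 and 15.2 FPKM. Which cells the reads of the 13 genes came from was not tested, so their counts and sums may describe LSK cells themselves. The part of endothelial cells in the Notch4 value was not tested. Notch4 lies 36.5 Mb from Tgif1 on the same chromosome.

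Notch3 (ENSMUSG00000038146, chromosome 17, positions 32257765 to 32303825), a receptor of vascular smooth muscle and developing T cells, stood at 0.106 and 0.215 FPKM, above 32.6% of the table's genes in the samples labelled Tgif1-/- and above 36.1% in those labelled wild type. It had too few reads for a test. A pseudocount of 0.1 FPKM moved its log2 ratio from -1.03 to -0.62 and a pseudocount of 1 FPKM moved it to -0.14, so the ratio rests on very low values. Of 1707 genes within 2-fold of its level, 123 were tested and 1 was called, and at their median error a 17.2-fold difference would have been needed for a call.

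**Figure D2:**
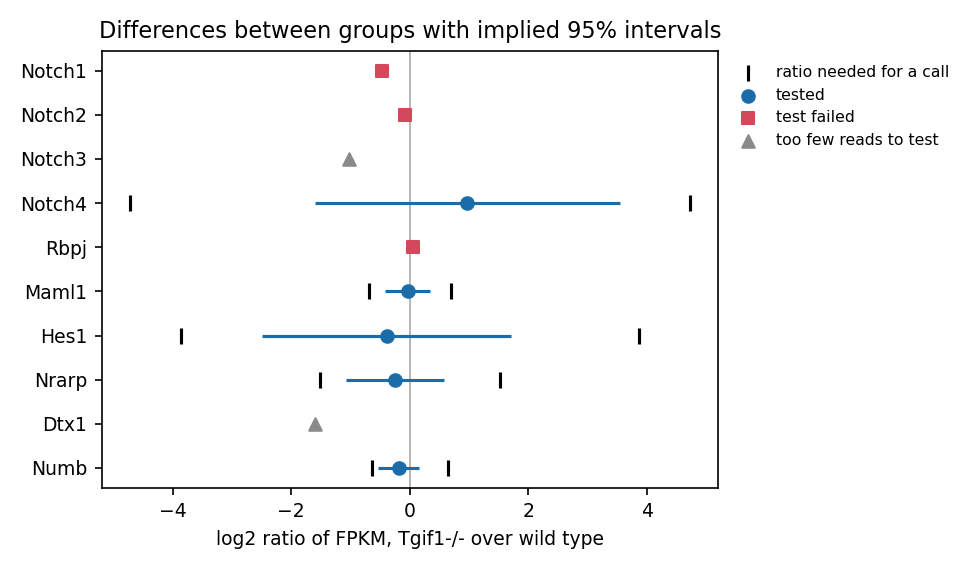
Log2 ratio of FPKM (Tgif1-/- over wild type) for the 10 Notch genes; circles are tested genes with bars for the implied 95% interval of the authors' test, squares are genes whose test failed, triangles are genes with too few reads, and black ticks mark the ratio a tested gene would have needed for a q at or under 0.05. Every bar crosses 0, and those of Numb and Maml1 are the narrowest.

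The nuclear partners differed little. Rbpj (ENSMUSG00000039191, chromosome 5, positions 53947018 to 54048684), the DNA-binding protein that every Notch receptor uses, stood at 30.8 FPKM in the samples labelled Tgif1-/- and at 29.5 FPKM in the wild-type samples, a log2 ratio of 0.06 whose test failed. Maml1 (ENSMUSG00000050567, chromosome 11, positions 50069136 to 50105838), the coactivator that bridges Notch and Rbpj to acetyltransferases, stood at 10.9 and 11.2 FPKM. Its log2 ratio was -0.04 ± 0.19 (implied standard error) with a 95% interval from -0.42 to 0.34. For it the authors' deposited table gave a p of 0.841. The interval reaches 1.33-fold lower and 1.27-fold higher. For Maml1, larger differences than these lie outside the interval of the authors' model, a bound that Notch1, Notch2 and Notch3 do not have.

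Numb (ENSMUSG00000021224, chromosome 12, positions 85134984 to 85262884), an adaptor that sends Notch for degradation and is inherited unequally by dividing progenitors, had the smallest error of the members. It stood at 19.0 and 21.7 FPKM. The log2 ratio was -0.19 ± 0.18 (implied standard error) with a 95% interval from -0.54 to 0.16. For it the authors' deposited table gave a q of 1.00. The interval reaches 1.45-fold lower and 1.11-fold higher, and a 1.56-fold difference would have been called. Its relative Numbl stood at 1.09 and 1.23 FPKM and was not called, so Numb was the more abundant of the pair in both groups.

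The 3 direct target genes of the set were low in LSK cells, whatever the group. All 3 had a lower value in the samples labelled Tgif1-/- without a call, as did 57.4% of all tested genes, called or not. Only 2 of the 3 were tested. Among the 8 tested genes of the further target list below, 4 had a higher value and 4 a lower one. Nrarp (ENSMUSG00000078202, chromosome 2, positions 25036278 to 25038850), an ankyrin-repeat protein that is induced by Notch and limits it, was the highest at 1.88 and 2.24 FPKM. Its log2 ratio was -0.26 ± 0.42 (implied standard error) with a 95% interval from -1.08 to 0.57. For it the authors' deposited table gave a p of 0.545. The interval admits a value 2.12-fold lower. Nrarp therefore gives only a loose bound.

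Hes1 (ENSMUSG00000022528, chromosome 16, positions 30064470 to 30067882), the repressor most often read as a sign of Notch activity, stood at 0.471 and 0.617 FPKM. Its log2 ratio of -0.39 had an implied standard error of 1.07 and a 95% interval from -2.49 to 1.71, and a 14.5-fold difference would have been needed for a call. Dtx1 (ENSMUSG00000029603, chromosome 5, positions 121130211 to 121161936), an E3 ligase of the Deltex family, stood at 0.0376 and 0.114 FPKM, with too few reads for a test. Its log2 ratio of -1.60 shrank to -0.64 with a pseudocount of 0.1 FPKM. A difference of the size seen in Notch1 was thus not detectable in Hes1 with this error, and Dtx1 had neither a test nor an error.

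Levels of the 10 genes differed widely. In the wild-type samples Notch1 exceeded 94.2% of all lines of the table, Notch2 85.8%, Rbpj 79.8%, Numb 75.2% and Maml1 65.6%. The targets Nrarp, Hes1 and Dtx1 exceeded 50.04%, 42.3% and 32.6%. The receptors Notch4 and Notch3 lay among these targets, at 46.2% and 36.1%. Other genes listed as targets in the wider list below ranged further, with Myc above 98.1% of lines and Hey2 at 0 FPKM. The order of the 10 genes by level changed between the groups at 1 place. Nrarp was above Notch4 in the wild-type samples and below it in the samples labelled Tgif1-/-, and the implied error of Notch4 leaves room for either order.

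Promoter windows were compared to see which sequence features the members share. RefSeq windows on GRCm38.p6, running from 250 bases before to 50 bases after a transcription start, were matched for 9 of the 10 genes and gave 12 windows. The letters TGACAG, the core bound by Tgif1, were searched on both strands (CTGTCA in reverse) and stood in 3 of these 12 windows, against 19.2% of 32851 windows of 300 bases. The letters TGGGAA, the core bound by Rbpj (TTCCCA in reverse), stood in 2 of the 12, both of Rbpj itself and overlapping, against 25.6% of all windows. The stretches that hold them are shown in lower case with the core in capitals, each read 5′ to 3′ on the strand of its gene, because they mark the only members whose window held either core:
Notch4: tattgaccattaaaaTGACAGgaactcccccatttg
Notch3: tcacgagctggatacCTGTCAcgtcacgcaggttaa
Numb: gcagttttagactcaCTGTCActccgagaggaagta
Rbpj, first: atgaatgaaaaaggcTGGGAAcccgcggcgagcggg
Rbpj, second: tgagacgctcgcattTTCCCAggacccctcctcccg
On GRCm38.p6 the Notch4 stretch lies at chr17:34564107-34564142 on the plus strand and the Notch3 stretch at chr17:32167060-32167095 on the minus strand. The Numb stretch lies at chr12:83842482-83842517 on the minus strand, and the Rbpj stretches at chr5:53590182-53590217 and chr5:53590266-53590301 on the plus strand. The first base of the core lay 173 bases before the start in Notch4, 190 in Notch3 and 144 in Numb, where it stood in 1 of several windows. These are matches of letters. Binding was not measured, and the windows without a match were searched only within these 300 bases.

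**Figure D3:**
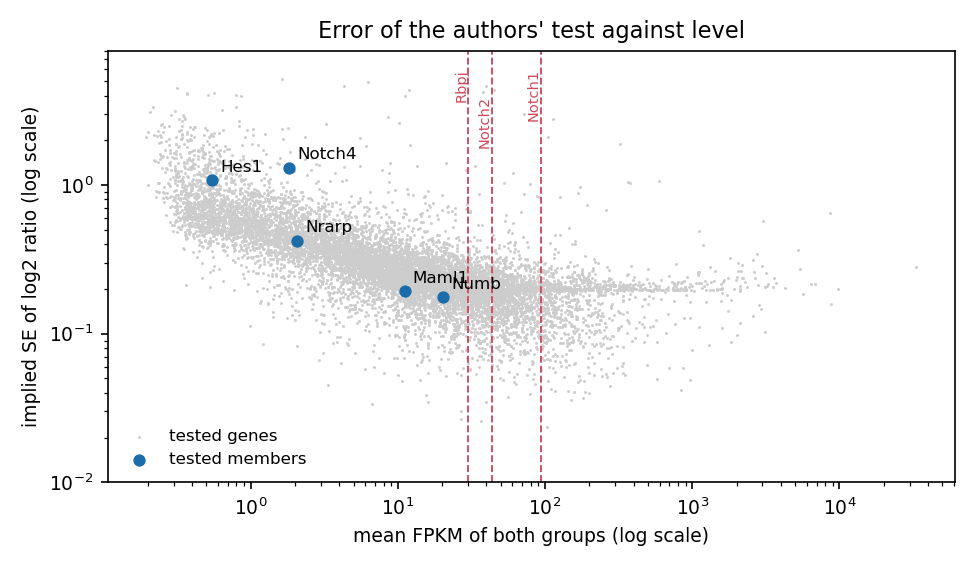
Implied standard error of the log2 ratio against mean FPKM, both on log axes, for all tested genes (grey) and the 5 tested Notch genes (blue); dashed red lines mark the mean level of the 3 Notch genes whose test failed and which have no error. Notch4, at 1.31, lies above the cloud of genes of its level, while Nrarp lies within it.

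Failed tests were common at the levels of Notch1, Notch2 and Rbpj. They made up 1.36% of genes under 1 FPKM, 12.9% from 1 to 10 FPKM, 26.5% from 10 to 30 FPKM, 33.6% from 30 to 100 FPKM and 34.9% from 100 FPKM. All 3 members whose mean reached 30 FPKM were affected. No source used here gives the reason for a failed test.

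A wider list of 81 other Notch pathway genes, of which 80 are in the table, was arranged by role. Of these, 50 were tested, 18 had a failed test and 12 had too few reads. None was called by Cuffdiff at a q of 0.05. At an unadjusted p below 0.05 there were 6 of 50 (12.0%), 1 higher and 5 lower in the samples labelled Tgif1-/-, beside 5.41% of all tested genes in either direction, 1.85% higher and 3.55% lower. Their median log2 ratio was -0.08, and 33 of the 50 (66.0%) had a lower value in the samples labelled Tgif1-/-, beside 57.4% of all tested genes. Of the 80, 21 share their listed interval with another gene, so reads of neighbours may mix there, and none of the 10 members does.

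Ligands were nearly absent. None of the 7 ligand genes reached 1 FPKM in either group. Dlk1, a non-canonical ligand, was the highest at 0.957 and 0.873 FPKM, and Jag2 stood at 0.642 and 0.777 FPKM. Dll1, Dll4 and Jag1, the ligands best known from the thymus and the niche, stood at or under 0.192 FPKM in both groups with too few reads for a test, and Dll4 was listed at 0 in the wild-type samples. These cells thus held Notch1 and Notch2 transcripts at far higher levels than ligand transcripts. Notch4, at 2.40 and 1.23 FPKM, was nearer to Dlk1, and Notch3, at 0.106 and 0.215 FPKM, lay below both Dlk1 and Jag2.

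The enzymes that glycosylate and cut the receptors were well expressed. Of the 6 glycosylation genes 5 were tested and 0 had an unadjusted p below 0.05. The Fringe gene Mfng, whose enzyme extends O-fucose on Notch and shifts its ligand preference, was the highest at 50.2 and 52.4 FPKM, above its relatives Lfng at 9.73 and 10.2 FPKM and Rfng at 4.30 and 4.13 FPKM. Pofut1, the enzyme that adds O-fucose to Notch, stood at 11.1 and 12.3 FPKM, and Pofut2, which acts on thrombospondin repeats, at 6.82 and 8.05 FPKM. Neither was called.

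All 10 cleavage genes were tested, and 1 had an unadjusted p below 0.05, a higher value, beside 5.41% of all tested genes in either direction and 1.85% higher. Adam17, a sheddase with many substrates, had a higher value, 111 and 90.5 FPKM, a log2 ratio of 0.30 ± 0.14 (implied standard error). For it the authors' deposited table gave a q of 0.809. Adam10, the protease that makes the ligand-dependent cut in Notch, stood at 71.8 and 70.3 FPKM with a log2 ratio of 0.03 and an interval from -0.12 to 0.18, the tightest of the cleavage genes. Ncstn, the substrate-binding subunit of gamma-secretase, stood at 49.3 and 55.6 FPKM, and Psenen, its smallest subunit, at 214 and 226 FPKM. Adam17 and Ncstn share their listed intervals with Iah1 and Copa.

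Most of the small unadjusted p-values came from nuclear cofactors, with 4 of 13 tested genes, all with lower values in the samples labelled Tgif1-/- and none called, beside 3.55% of all tested genes lower at that p. Ncor1, a corepressor that can sit on Rbpj when Notch is silent, stood at 317 and 356 FPKM, a log2 ratio of -0.17 ± 0.06 (implied standard error). For it the authors' deposited table gave a q of 0.394. Also among them were Tle3, a Groucho-type corepressor of Hes proteins, at 59.6 and 68.7 FPKM, and the coactivator Maml3 at 14.7 and 19.6 FPKM. These 2 were named after their values were seen. Ncor1 and Maml3 share their listed intervals with other genes.

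The Mastermind genes can be set side by side. Maml1, at 10.9 and 11.2 FPKM, and Maml2, at 9.997 and 10.6 FPKM, had log2 ratios of -0.04 and -0.09. That of Maml3 was -0.41 with an interval from -0.80 to -0.01, and the authors' deposited table gave it a q of 0.856. The difference between Maml3 and its relatives was not tested.

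Among 18 further genes in the table that were listed as targets, 8 were tested, 5 had a failed test and 5 had too few reads. This list takes in relatives in the Hes, Hey and Deltex families, and whether each answers to Notch in these cells was not tested. Dtx4, a Deltex ligase, had the smallest p, with 4.56 and 6.75 FPKM, a log2 ratio of -0.56, an implied standard error of 0.26 and, in the authors' deposited table, a q of 0.689. The other Deltex genes were nearer to equal, with Dtx2 at 20.01 and 19.2 FPKM and, both with failed tests, Dtx3 at 12.0 and 13.4 FPKM and Dtx3l at 41.5 and 41.0 FPKM. Hes6, a Hes protein that opposes Hes1, stood at 10.6 and 13.7 FPKM and was the highest Hes gene, while Hes5 and Hes7 stayed under 1 FPKM. Hey1 was listed at 0 in the samples labelled Tgif1-/- and at 0.0614 FPKM in the wild-type samples, and Hey2 was listed at 0 in both. Myc, a target in T cell progenitors, was the highest at 322 and 310 FPKM with a failed test.

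Genes of turnover and trafficking gave 0 of 12 tested genes at an unadjusted p below 0.05 by Cuffdiff. Mib2, a ligase that sends ligands into endocytosis, stood at 3.32 and 4.43 FPKM with a log2 ratio of -0.42 and, in the authors' deposited table, a p of 0.0934. Neurl3, of the Neuralized family, stood at 25.7 and 21.9 FPKM. Cbl, an E3 ligase of receptors, was the highest at 231 and 225 FPKM. Tests failed for Itch and Fbxw7, ligases that act on Notch itself.

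**Figure D4:**
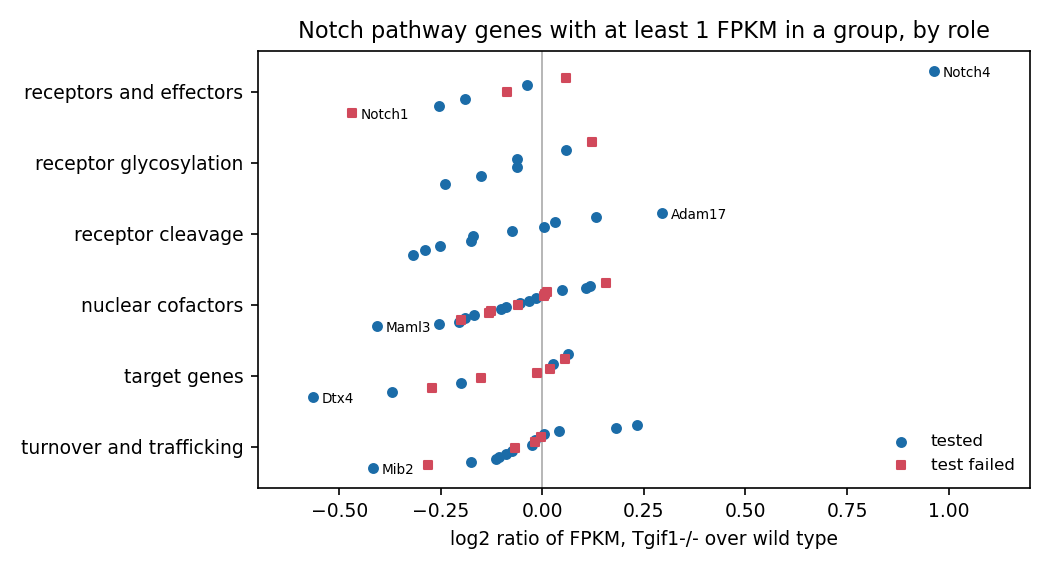
Log2 ratio of FPKM (Tgif1-/- over wild type) for the 7 of 10 Notch receptors and effectors and the other pathway genes with 1 FPKM or more in either group and values above 0 in both, by role; blue circles are tested genes and red squares are genes whose test failed, spread vertically only for legibility. Ligands are not drawn because none reached 1 FPKM; most points lie within 0.5 of 0, with Notch4 at 0.96 and Dtx4 at -0.56 the farthest out.

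Markers of other cells that express Notch genes were read alongside. Of 10 tested B cell markers 4 were called, all lower in the samples labelled Tgif1-/-, against a background of 0.373%. They were Ebf1 at 3.13 and 13.7 FPKM, Igll1 at 12.7 and 40.9 FPKM, Blnk at 4.24 and 11.8 FPKM and Cd79a at 5.16 and 13.7 FPKM. Cd79b, a further B cell receptor chain, stood at 27.8 and 27.6 FPKM. Of the 12 B cell markers, 8 had a lower value in the samples labelled Tgif1-/- and 4 a higher one. The 4 were Cd79b, Ms4a1 at 0.165 and 0.0594 FPKM, Cr2 at 1.38 and 1.24 FPKM and Cd22 at 0.210 and 0.191 FPKM. None of the 12 was listed at 0. Their summed level was 60.8 and 122 FPKM, a gap in the same direction as that of Notch1 but not shared by every marker. Its part in the Notch1, Notch2 and Dtx1 values was not tested. Of 9 tested T and NK cell markers 0 were called and 1 had an unadjusted p below 0.05, Klrd1 at 3.12 and 5.27 FPKM, beside 3.55% of all tested genes lower at that p. The summed level of the 13 in the table was 357 and 362 FPKM, nearly all of it from Nkg7 at 316 and 313 FPKM and Lck at 22.7 and 27.7 FPKM. One of these T and NK markers, Cd3g, was listed at 0 in the samples labelled Tgif1-/-. Of 8 tested megakaryocyte markers 1 was called, Rab27b, higher in the samples labelled Tgif1-/- at 4.42 and 3.10 FPKM, against a background of 0.289%. With its error raised to the median of genes at like level, the adjusted p of Rab27b was 1.00 and the call was lost. Pf4, a platelet chemokine of that list, stood at 108 and 59.7 FPKM, and the list summed to 303 and 241 FPKM. Stromal markers summed to 19.5 and 17.2 FPKM, of which Pdgfrb alone gave 18.2 and 15.9 FPKM and Lepr 0.770 and 0.726 FPKM, and of the 9 genes Dcn, Bglap and Lum were listed at 0 in both groups and Col3a1 in the wild-type samples.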

How the data were processed

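RNA of about 200 ng per sample was sequenced in 6 samples, 3 per group. The submitters' processing notes name TopHat and Cuffdiff without versions, and hg19, a human build, while the gene identifiers are mouse ones. Per the file headers, the authors deposited 1 FPKM value per group, with a log2 fold change, a statistic, a p-value and a q-value from their test. Depth per sample and steps before alignment are not given in the sources used here.

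The members and gene lists were chosen with earlier results of these data known. The deposited fold change (wild type over Tgif1-/-) was turned round. Calls required the status "OK" and a deposited q at or under 0.05, which the authors adjusted over all 10730 tested genes. The implied standard error (log2 fold change over test statistic) was taken for the 10683 tested genes above 0 in both groups, since their deposited p-values all matched the normal two-sided value within 0.001, and gave the 95% intervals. A q at or under 0.05 needed a test statistic of 3.60. Error calculations were run on simulated data drawn with these same implied errors. That checks the arithmetic only and cannot show whether the errors fit these samples. Named were all members, Tgif1, for each pathway role any called gene or else the 2 smallest p-values among tested genes with 1 FPKM or more in either group, and its highest gene, and for each marker list called genes and the 2 highest. Other genes named beside these were chosen after their values were seen. Of the genes this rule selects, some are not reported here. Where a symbol had several lines, the one with the higher mean was used.

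Alternatives were q thresholds of 0.01 and 0.1, unadjusted p, an error floor (the median error within each of 20 level bins), minimum levels of 1 and 5 FPKM, pseudocounts of 0.1 and 1 FPKM, and centring on the median tested gene. Promoter windows came from RefSeq on GRCm38.p6. Python 3.11.15, pandas 2.3.3, numpy 2.4.6, scipy 1.17.1 and matplotlib 3.10.9 were used.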

Additional observations from a re-analysis of the deposited data

How the results depend on the processing

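The count of called members was 0 under each alternative run: q at or under 0.01 or 0.1, an unadjusted p below 0.05 by Cuffdiff, the error floor, and at least 1 or 5 FPKM in a group. For the other pathway genes the count was 0 under the same alternatives except the unadjusted p, which gave 6. The median log2 ratio of the tested members (-0.19) kept its sign and ran from -0.11 (at least 1 or 5 FPKM) to -0.22 (all 10 genes), and that of the other pathway genes ran from -0.04 (centred) to -0.08. Of 30 ratios of single members under a pseudocount or centring, 0 changed sign and 4 moved by more than their error or 0.1 where no error exists, those of Notch3 and Dtx1 under both pseudocounts. Leaving out a sample was not possible with 1 value per group. No paired analysis was possible because the columns hold group values and the groups share no replicate number. The depth and the spread between samples limit every statement and could not be read.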
